A study of Homo sapiens and Mus musculus with 20 samples.

Results

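The genes described here are 221 human genes named ZNF followed by a number, which are well expressed in IMR90, a line of human fibroblasts from fetal lung. They are the ZNF genes that were listed in all 12 IMR90 libraries and had a mean normalized read count of at least 300 over the 2 Control2 libraries. In all, 444 ZNF genes were listed in at least 1 IMR90 library, 322 were listed in all 12, and 101 of those 322 lay under the level limit. A further 9 ZNF genes reached the limit but were not listed for pyruvate (ZNF22, ZNF184, ZNF268, ZNF300, ZNF322, ZNF471, ZNF559, ZNF570 and ZNF736), so every count below leaves them out. Just inside the limit were ZNF415 (mean 301), ZNF699 (305.2) and ZNF440 (305.2), and just outside it ZNF669 (297), ZNF283 (295) and ZNF429 (289).

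Bulk RNA sequencing was done on 3 treatments of IMR90 cells labelled wild type, each with 2 libraries and with 2 untreated libraries of its own: A485, an inhibitor of the acetyltransferase p300, against Control2; MS-275, which inhibits the class I histone deacetylases, against Control3; and pyruvate against Control6. The study used the treatments to ask how histone acyl marks bear on cellular senescence, and it gave pyruvate to senescent cells. No labels name separate cultures, so the p-values below measure the spread between libraries, which may be technical. The 3 comparisons share no library. Values are read counts per gene divided by the authors' size factor of each library, and each table was normalized separately, so levels are compared only within a treatment and its control.

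The A485 and Control2 libraries held 39194881 to 40557867 reads, recovered from the steps between values. In the other libraries, where that step lies near 1 and could not be checked as well, the same sum gave 24179065 to 46971227 reads. Every library listed all 10 fibroblast markers tested. The libraries numbered 2 of Control3 and of MS-275 stood apart from those numbered 1. The difference of library 2 from library 1 followed the GC content of the transcript, with a Spearman correlation across the 221 ZNF genes of 0.60 in Control3 and 0.69 in MS-275, against 0.0087 in Control2, 0.13 in A485, -0.0017 in Control6 and -0.16 in pyruvate. ZNF genes of low GC content tended to be lower in library 2 than in library 1 of both groups. ZNF638 had 3647 and 491 counts in the Control3 libraries 1 and 2, and 3179 and 577 in the MS-275 libraries. MS-275 is therefore also described within each replicate number.

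ZNF genes encode proteins with C2H2 zinc fingers, short folds in which a pair of cysteines and a pair of histidines hold a zinc ion. Arrays of such fingers read DNA sequence. Many of the proteins also carry a KRAB domain, which recruits TRIM28 and, through it, SETDB1, HP1 proteins and histone deacetylase complexes to silence retroelements and other loci. Human KRAB zinc finger genes lie largely in clusters on chromosome 19. Others have no KRAB domain and act as activators, as partners of chromatin complexes or outside transcription, on RNA, ribosomes or the spindle.

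Of the 221 genes, 97 (43.9%) lay on chromosome 19, and the others on a further 20 chromosomes. The protein of 102 genes (46.2%) matched a KRAB letter pattern, a lower bound, since the pattern does not find every KRAB domain, and 73 of the 102 were on chromosome 19. The number of fingers found ranged from 0 to 36 with a median of 10. The transcripts were long (median 4518 bases, against 3255 over all genes listed in all 12 libraries) and low in GC content (median 44.6%, range 33.2% to 70.9%, against 48.6%). Genes with a KRAB match had a median GC content of 43.0% and those without 51.3%. Per kilobase of transcript, the median level in Control2 was 167 counts, against 363 over all genes. The highest levels per kilobase were 1496 for ZNF622, 1269 for ZNF703 and 1195 for ZNF580.

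The coding sequence of 1 finger is shown for the 2 genes that rose most and the 2 that fell most after pyruvate among those with 5 or more fingers by the looser spacing of the counts above, because the 4 differ in base composition as the results below do. Each stretch is the first finger of a stricter spacing, of which ZNF639 has 4 and the others 7 to 14, from the first cysteine codon to the last histidine codon, read in the sense direction from the GENCODE canonical transcript, and capitals mark the 4 codons of the zinc ligands. ZNF639 lies at chr3:179333667-179333729 (hg38, plus strand), ZNF699 at chr19:9296753-9296815 (minus strand), ZNF219 at chr14:21093060-21093122 (minus strand) and ZNF48 at chr16:30397590-30397652 (plus strand), each within an exon.
ZNF639: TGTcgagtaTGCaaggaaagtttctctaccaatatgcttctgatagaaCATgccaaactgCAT
ZNF699: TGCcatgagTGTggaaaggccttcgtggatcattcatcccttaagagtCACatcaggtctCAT
ZNF219: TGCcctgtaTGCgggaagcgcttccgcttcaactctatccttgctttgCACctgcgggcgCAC
ZNF48: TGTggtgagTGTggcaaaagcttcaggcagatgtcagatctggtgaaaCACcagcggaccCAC
The GC content of these stretches was 39.7% in ZNF639 and 47.6% in ZNF699, both higher after pyruvate, and 60.3% in ZNF219 and 54.0% in ZNF48, both lower. Over the 201 genes with a strict finger, the median GC content of all their fingers was 45.4%. It was 42.0% in the 85 of them that were called higher after pyruvate and 64.4% in the 28 called lower.

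As a family, the ZNF genes took a small share of the normalized counts, which differed with each treatment. The share was 0.512% and 0.495% in the Control2 libraries and 0.693% and 0.651% in the A485 libraries, so both treated libraries lay above both controls. It was 0.549% and 0.413% in Control3 and 0.423% and 0.318% after MS-275, which was lower within each replicate number while the groups overlapped. It was 0.307% and 0.296% in Control6 and 0.422% in each pyruvate library, again above both controls. Genes outside the family moved in the same directions when every library was scaled to one total. On that scale the median of all genes was 0.40 after A485, -0.15 after MS-275 and 0.30 after pyruvate (log2). The ZNF median minus that of all genes was 0.17, -0.30 and 0.73 in the same order. Part of each shift in share was therefore common to all genes, and after A485 the larger part. A share also moves with the most abundant genes, and in bulk samples fewer cells of a type and less RNA per cell cannot be told apart.

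**Figure D1:**
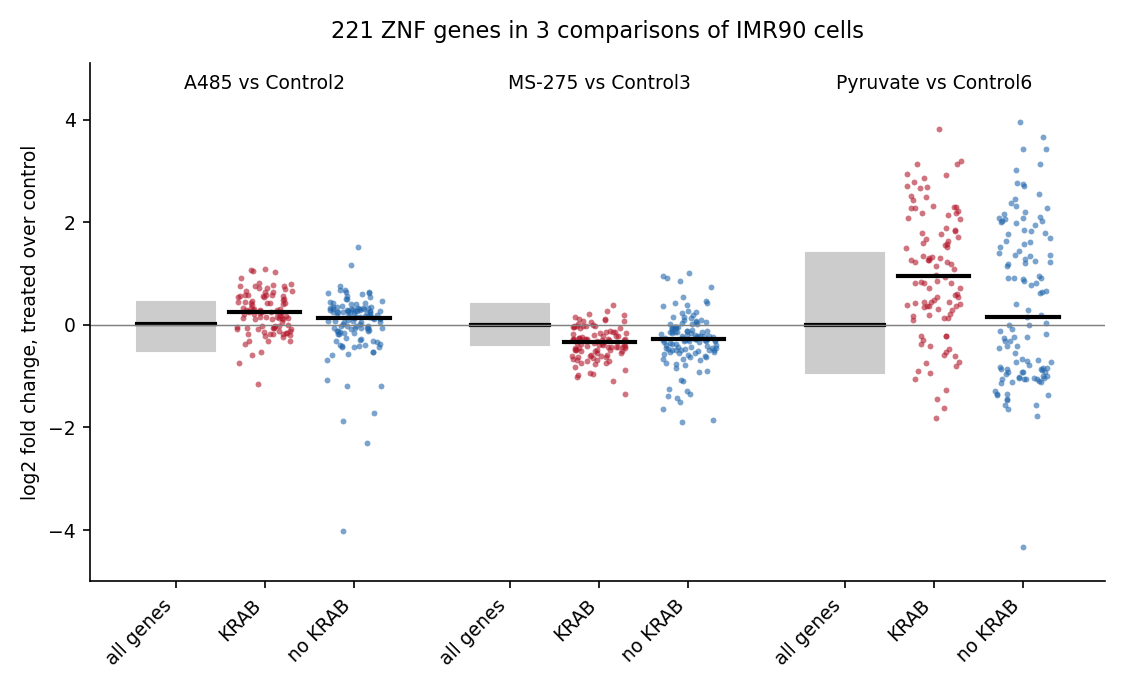
Log2 fold change (vertical axis, treated over control) of the 221 ZNF genes in the 3 comparisons. Each point is 1 gene, red with a KRAB match (102) and blue without (119), black bars are medians, and the grey boxes are the interquartile range of all genes tested. The KRAB group has a median of 0.25 after A485, -0.34 after MS-275 and 0.96 after pyruvate, while the medians of all genes lie near 0.

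Pyruvate was followed by the widest movement of the family. With limma and Benjamini-Hochberg adjustment over 12013 genes, at an adjusted p under 0.05 and an absolute log2 fold change above 1, 94 of the 221 genes (42.5%) were called higher, where 31.0% of all genes were, and 30 (13.6%) were called lower, where 23.1% of all genes were. The median log2 fold change was 0.73, against -0.01 over all genes. With the counts scaled to equal library totals, which moved the median of all genes to 0.30, the calls were 111 higher and 14 lower (background 36.6% and 14.5%), and with quantile normalization, which moved it to -0.17, they were 69 higher and 51 lower (background 26.2% and 26.9%). The family median was 1.04 and 0.28 under these scalings. Equal totals shift all genes almost alike, so the family median minus that of all genes could hardly change there (0.73 with and without). With quantile normalization that difference was 0.45.

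The fold change after pyruvate went with GC content in the family and in all genes alike. Across genes, the Spearman correlation of the log2 fold change with GC content was -0.69 for the 221 ZNF genes and -0.72 for 11888 genes with a known GC content. In the 74 ZNF genes of lowest GC content (up to 42.2%), 53 were called higher and 0 lower, with a median log2 fold change of 1.54. In the 73 of middle GC content the counts were 40 and 2 (median 1.27). In the 74 of highest GC content (over 50.4%) they were 1 and 28 (median -0.86). The gene called higher in that last group was ZNF697, named here by the rule for A485. Of all genes, at any GC content, 31.0% were called higher and 23.1% lower. The medians of other genes in like bins of GC content and level, described below, were 1.77, 1.14 and -1.06 in the same order.

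To set the family against genes of like GC content and level, genes were placed in 10 bins of GC content by 5 of level, and the bin medians at the places of the 221 genes had a median of 1.14. The log2 fold change minus the median of the gene's own bin had a median of 0.21, and 122 of the 221 genes were above their bin and 99 below it. The bands of GC content differed in this, with a median of -0.099 in the lowest (29 above, 45 below), 0.40 in the middle (48 above, 25 below) and 0.25 in the highest (45 above, 29 below). The 72 genes with a Control2 mean of at least 1000 had 0.41 (50 above, 22 below). With a smooth trend on GC content and transcript length removed from each library, 43 ZNF genes were called higher (19.5%, background 20.5%) and 17 lower (7.7%, background 9.57%), with a median of 0.32 against 0.20 over all genes. Of those 60 calls, 37 were among the 124 made without the trend removal. What sets the relation with GC content was not tested.

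**Figure D2:**
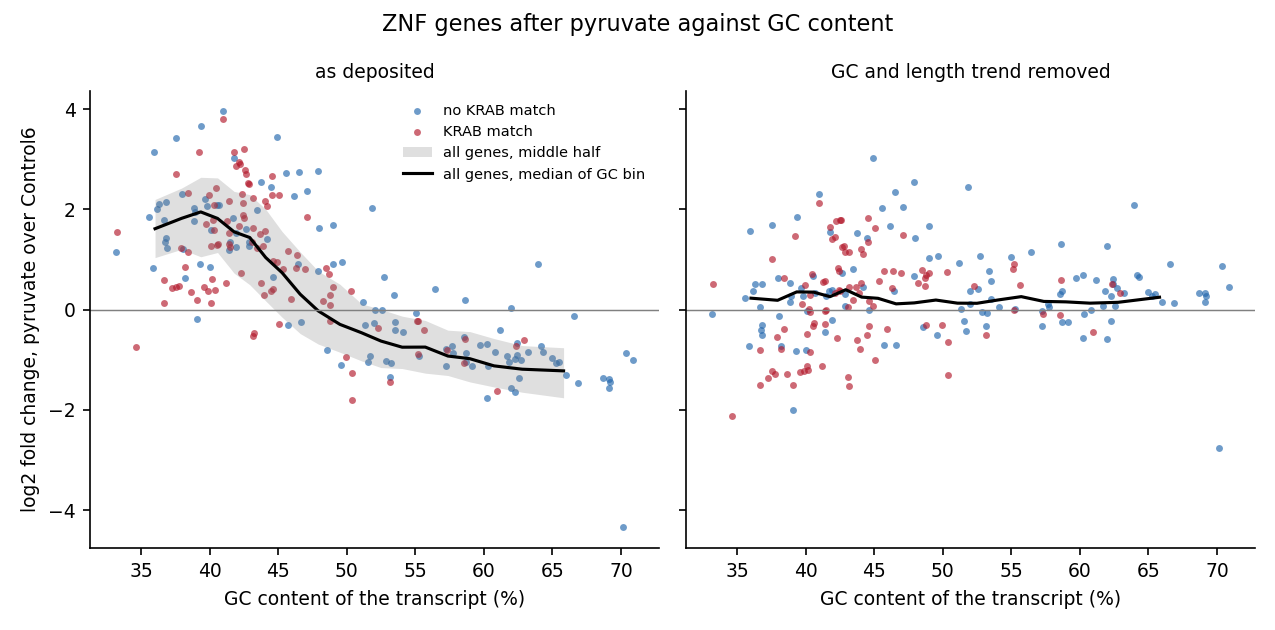
Log2 fold change of the 221 ZNF genes after pyruvate (vertical axis) against the GC content of the transcript in percent (horizontal axis), as deposited (left) and with the trend on GC content and length removed (right). Red points have a KRAB match, blue points do not, and the black line joins the medians of all genes in 20 GC bins, with their interquartile range in grey on the left. Most ZNF genes follow the line of all genes on the left with a wide spread around it, and ZNF219, at -4.34 on the left, lies far below it in both panels.

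Genes with a KRAB match rose more often than those without when GC content was left aside. Of 102, 50 were called higher and 5 lower (median 0.96), against 44 and 25 of the 119 others (median 0.16). Among all genes the shares were 31.0% and 23.1%. On chromosome 19, 41 of the 73 KRAB genes were called higher and 1 lower (median 1.27). Within the lowest and middle bands of GC content the order of the medians was the other way round. In the lowest band the median was 1.30 with a KRAB match (25 of 40 called higher) and 1.81 without (28 of 34). In the middle band it was 1.09 (25 of 49) and 1.51 (15 of 24), and in the highest it was -0.73 (0 of 13) and -0.87 (1 of 61). The members with 10 or more fingers had a median of 1.09, those with 5 to 9 of 0.20, and those with 0 to 4 of -0.0031. Their median GC contents were 43.7%, 48.6% and 52.6%, and with the trend removed their medians were 0.37, 0.32 and 0.32.

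The 6 ZNF genes that rose most had low counts in both Control6 libraries. ZNF639 (chr3:179323031-179338583, hg38), also known as ZASC1, had 35.4 and 30.4 counts in Control6 and 526 and 520 after pyruvate, a log2 fold change of 3.96 ± 0.23 (SE; limma adjusted p 2.8e-08). ZNF699 (chr19:9291140-9309838) had 20.6 and 10.9 counts in control and 217 and 230 after pyruvate (log2 fold change 3.81 ± 0.39). ZNF507 (chr19:32345594-32387667) had 19.6 and 10.9, and then 197 and 199 (3.67 ± 0.39). In all 3, the lower of the treated values was several times the higher of the control values.

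ZNF35 (chr3:44648732-44660791) had 21.6 and 48.8 counts in Control6 and 362 and 361 after pyruvate (log2 fold change 3.43 ± 0.35). ZNF24 (chr18:35332227-35345482), a SCAN domain protein that represses VEGF transcription, had 79.6 and 91.1, and then 917 and 940 (3.43 ± 0.16). ZNF791 (chr19:12610918-12633840), whose span meets that of ZNF490 on the other strand, had 77.6 and 60.8, and then 591 and 685 (3.19 ± 0.20). All 6 stayed called with the GC and length trend removed, at log2 fold changes of 1.69 (ZNF24) to 3.02 (ZNF35).

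Among the genes that fell, ZNF219 (chr14:21090077-21104722), which binds GC-rich sites and is known as a partner of SOX9 in cartilage, stood apart. It had 837 and 1026 counts in Control6 and 56.0 and 36.0 after pyruvate, a log2 fold change of -4.34 ± 0.24 (limma adjusted p 1.54e-08), and -2.75 with the trend removed. Its span meets that of ARHGEF40 on the other strand. The next largest falls were smaller. ZNF589 (chr3:48241100-48299253), a KRAB gene, had 539 and 554 counts in control and 145 and 166 after pyruvate (log2 fold change -1.81 ± 0.16, and -1.31 with the trend removed).

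ZNF48 (chr16:30378106-30400108) had 712 and 598 counts in Control6 and 183 and 199 after pyruvate (log2 fold change -1.77 ± 0.15). ZNF771 (chr16:30407414-30431108) had 546 and 615, and then 195 and 175 (-1.65 ± 0.16). ZNF319 (chr16:57994676-58000672) had 857 and 765, and then 273 in each library (-1.56 ± 0.13). The groups did not overlap for any of the 3, nor for ZNF517 (353 and 391, then 133 and 108). With the trend removed, the log2 fold changes of these 4 lay between -0.59 and -0.22 and none was called.

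**Figure D3:**
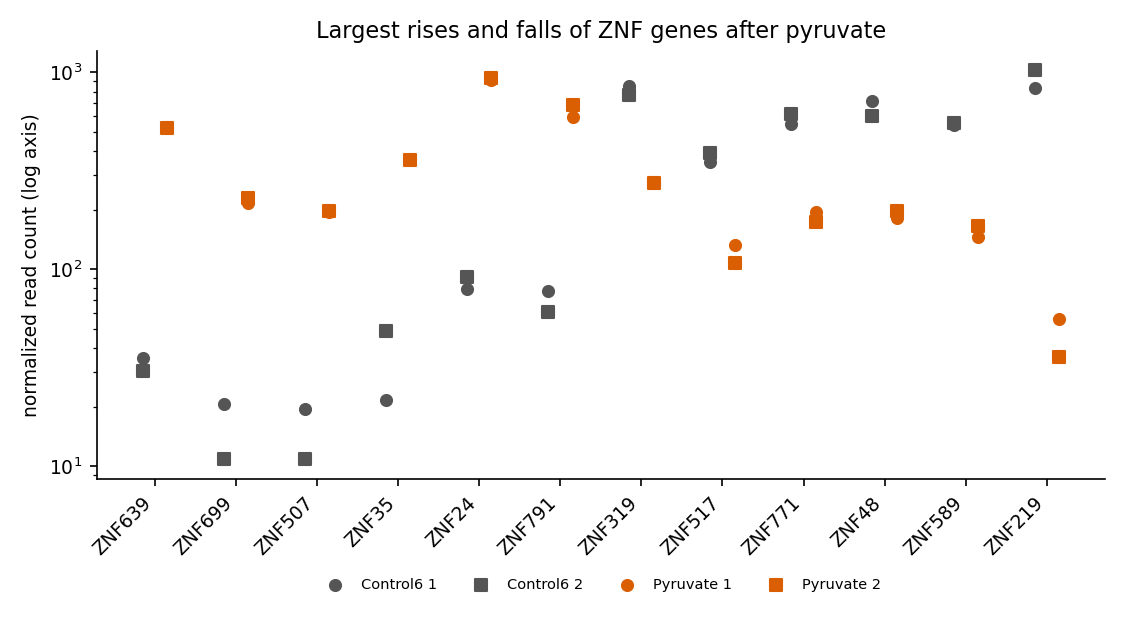
Normalized read counts (vertical log axis) of the 6 ZNF genes with the largest rises and the 6 with the largest falls after pyruvate, in the 2 Control6 libraries (grey) and the 2 pyruvate libraries (orange), circles for library 1 and squares for library 2. Genes run from the largest rise (ZNF639) to the largest fall (ZNF219), and in each gene both treated values lie on one side of both controls.

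By role, the partners of chromatin complexes moved unequally after pyruvate, with 4 of 7 called higher and 1 lower (31.0% and 23.1% of all genes). With the trend removed, 3 remained called (ZNF644, ZNF532 and ZNF827), while ZNF217 stood at 0.81 and ZNF687 at -0.24. Of all genes, 20.5% were then called higher and 9.57% lower. ZNF644, a partner of the H3K9 methyltransferases G9a and GLP, had 31.4 and 22.8 counts in Control6 and 242 and 244 after pyruvate (log2 fold change 3.13 ± 0.30, limma adjusted p 1.87e-06). ZNF532, ZNF592 and ZNF687 bind ZMYND8 as a group of related proteins, yet they split. ZNF532 had 346 and 305 counts in control and 2143 and 2132 after pyruvate (2.72 ± 0.11). ZNF687 went from 1278 and 1131 to 548 and 560 (-1.12 ± 0.11), and ZNF592 had 1333 and 1192, then 993 and 1117 (-0.26 ± 0.10, not called). GC content was 45.5% in ZNF532, 52.0% in ZNF592 and 59.1% in ZNF687. ZNF217, a partner of the CoREST complex, rose (1.99 ± 0.13), as did ZNF827, which recruits the NuRD complex (1.63 ± 0.16). ZNF516 was not called (0.29 ± 0.12).

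Of 5 promoter-bound activators and binders of GC-rich sites, 3 were called higher and 1, ZNF219, lower (31.0% and 23.1% of all genes). ZNF281 had 78.6 and 120 counts in Control6 and 794 and 807 after pyruvate (log2 fold change 3.03 ± 0.21). ZNF148, also called ZBP-89, had 62.9 and 66.2, and then 210 and 260 (1.84 ± 0.24), and ZNF143, an activator of small nuclear RNA genes, 60.9 and 76.0, and then 219 and 178 (1.53 ± 0.26). ZNF76, a close relative of ZNF143, had a value of -0.86 ± 0.17 and was not called (0.37 with the trend removed). With the trend removed, ZNF281 remained called at 1.55 (limma adjusted p 0.00049), while ZNF148 stood at 0.23 and ZNF143 at 0.39.

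Members that act outside transcription divided by gene. The ribosome maturation factor ZNF622 fell, from 4247 and 4686 counts to 1672 and 1828 (log2 fold change -1.35 ± 0.08), a call lost with the trend removed (-0.33). ZNF598, a ubiquitin ligase of collided ribosomes, had -0.97 ± 0.14, was not called and stood at 0.34 with the trend removed. The spindle and kinetochore protein ZNF207 rose from 1036 and 1007 to 2759 and 2777 (1.44 ± 0.08), but its log2 fold change was -0.31 with the trend removed. ZNF326 and ZNF638, which act in splicing, were called higher, ZNF326 at 1.80 ± 0.20 and ZNF638 with a rise from 56.0 and 47.7 counts to 191 and 306. Neither stayed called with the trend removed (0.059 and 0.42). The double-stranded RNA binder ZNF346 had -0.93 ± 0.12 and was not called. A list of genes with a SCAN domain, which pairs such proteins, held 11 members, and no search for the domain was made. Of these 11, 3 were called higher (ZNF24, ZNF397, ZNF449) and 5 lower (ZNF174, ZNF213, ZNF394, ZNF444, ZNF500), where 31.0% and 23.1% of all genes were. With the trend removed none of the 5 stayed lower, and ZNF213 and ZNF444 changed sign (0.30 and 0.32). The genes then called higher were ZNF24, ZNF202 (1.03) and ZNF496 (1.15), where 20.5% of all genes were called higher and 9.57% lower. The SVA silencer ZNF91 had 44.2 and 47.7 counts in Control6 and 60.0 and 42.5 after pyruvate, which overlapped, but it was called lower with the trend removed (-1.51, limma adjusted p 0.00174).

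The genes that KRAB proteins work through were taken from a list of 15, of which 9 were called higher after pyruvate and 0 lower, where 31.0% and 23.1% of all genes were. CBX5, which encodes HP1 alpha, had 402 and 465 counts in Control6 and 5453 and 6000 after pyruvate (log2 fold change 3.72 ± 0.10, limma adjusted p 1.21e-10). HDAC2 had 303 and 358, and then 2493 and 2167 (2.82 ± 0.12). TRIM28 itself was not called, with 7457 and 7546 and then 5147 and 5323 counts (-0.52 ± 0.06), and its value with the trend removed was 0.76. SETDB1 had -0.07 ± 0.12. With the trend removed, 5 of the 15 were called higher and 0 lower, where 20.5% and 9.57% of all genes were. CBX5 (2.13) was among the 5 but HDAC2 (0.999) was not. None of the 15 was called after A485 or MS-275. Among 71 other C2H2 genes (ZBTB, ZKSCAN, ZSCAN, ZFP and KLF families), 41 were called higher after pyruvate and 8 lower (median 1.44), and among the 101 ZNF genes under the level limit 30 and 14 (median 0.48).

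After MS-275 most ZNF genes had lower values, by amounts that no single gene's test passed in the fit of these 4 libraries without the replicate number. None of the 221 genes was called in either direction (limma, Benjamini-Hochberg over 15883 genes), and neither was any other gene (0.0% higher, 0.0% lower). A fit shared by the 12 IMR90 libraries called 5 ZNF genes lower and 0 higher, with 267 lower and 220 higher of all 11989 genes tested in it. The share of ZNF genes called lower was thus close to that of all genes. That fit pools the spread over all 12 libraries, and replicates differed less in the other groups. Its p-values therefore do not measure the spread of these 4 libraries. At an unadjusted p under 0.05, 1 ZNF gene was higher and 10 lower (0.45% and 4.5%), against 985 and 745 of all genes (background 6.2% and 4.69%). The log2 fold change was below 0 in 182 of the 221 genes and above 0 in 39 (17.6%, background 49.4%), with a median of -0.30 against -0.01 over all genes.

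The shift was present within both replicate numbers. The median log2 difference was -0.28 between the libraries numbered 1 and -0.33 between those numbered 2. Within both numbers, 159 ZNF genes (71.9%) were lower, where 40.4% of all genes were, and 27 (12.2%) were higher, where 38.6% were. Both MS-275 libraries lay below both controls in 68 genes (30.8%, background 19.3%) and above both in 10 (4.5%, background 19.5%). Left out 1 at a time, the libraries moved the median, to -0.13 without MS-275 library 2, -0.18 without Control3 library 1, -0.44 without MS-275 library 1 and -0.48 without Control3 library 2. The number of ZNF genes above 0 became 90, 84, 50 and 52 in the same order.

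**Figure D4:**
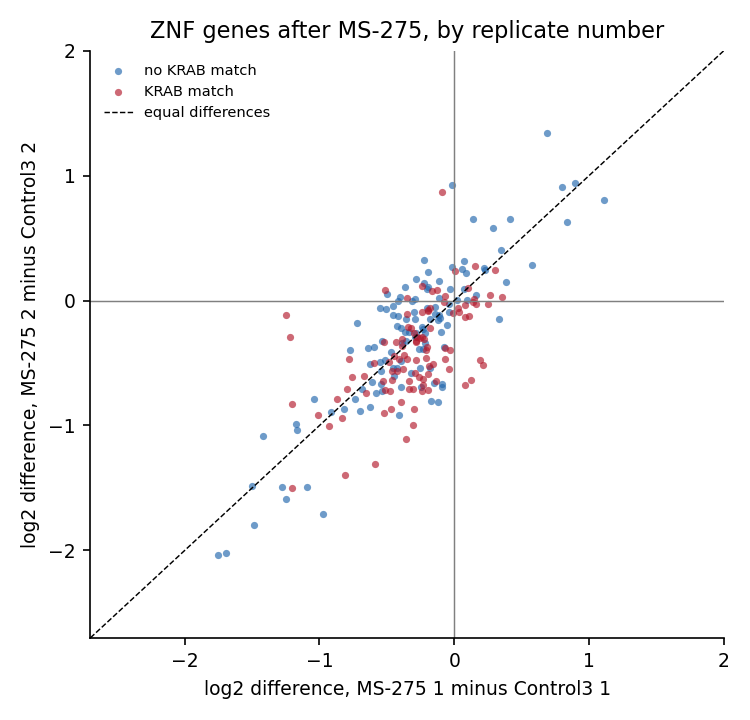
Log2 difference of MS-275 from Control3 in the libraries numbered 2 (vertical axis) against that in the libraries numbered 1 (horizontal axis), for the 221 ZNF genes. Red points have a KRAB match, blue points do not, and the dashed line marks equal differences. The lower left quadrant holds 159 genes and the upper right 27.

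Unlike after pyruvate, the shift after MS-275 had little relation to GC content. The Spearman correlation of the log2 fold change with GC content across the 221 genes was 0.09, and the medians of the 3 bands were -0.36, -0.30 and -0.24 from lowest to highest GC content. The numbers differed in this. In the same order, the band medians were -0.23, -0.30 and -0.30 between the libraries numbered 1, and -0.37, -0.40 and -0.13 between those numbered 2. The median minus the gene's own bin of GC content and level was -0.25, with 53 genes above their bin and 168 below. Genes with a KRAB match had a median of -0.34 and those without of -0.28. By finger number, the 117 genes with 10 or more had a median of -0.31, the 69 with 5 to 9 of -0.36, and the 35 with 0 to 4 of -0.04. The 101 ZNF genes under the level limit had a median of -0.36 and the 83 genes of the other C2H2 families of -0.15. These are descriptions, since genes are not replicates.

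The genes with the largest falls whose groups did not overlap were led by ZNF469 (chr16:88382959-88440757), whose loss causes a brittle cornea syndrome. It had 7032 and 2100 counts in Control3 and 2090 and 510 after MS-275, a log2 fold change of -1.89 ± 0.91 (limma adjusted p 0.584), and in both groups library 2 was lower than library 1. ZNF428 (chr19:43607224-43619629) had 981 and 1959, and then 303 and 481 (-1.86 ± 0.49, adjusted p 0.309). ZNF641 (chr12:48337180-48351414) had 475 and 589, and then 169 and 168 (-1.64 ± 0.34, adjusted p 0.245).

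ZNF362 (chr1:33256492-33300719) had close replicates, with 1363 and 1287 counts in Control3 and 480 and 458 after MS-275 (log2 fold change -1.49 ± 0.31, limma adjusted p 0.243). ZNF521 (chr18:25061924-25352190), a regulator of mesenchymal progenitors, had 2474 and 1540, and then 1042 and 512 (-1.42 ± 0.50). ZNF853 had 479 and 935, and then 197 and 332 (-1.39 ± 0.51). For each of the 6 the difference had the same sign in both numbers, as the rule for naming them required, and a like size. None passed the test in the fit of these 4 libraries, while ZNF428, ZNF641 and ZNF362 did in the shared fit.

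In the other direction, ZNF219 had 587 and 460 counts in Control3 and 945 and 1165 after MS-275 (log2 fold change 1.01 ± 0.34, limma adjusted p 0.393). ZNF622 had 2146 and 3623, and then 3745 and 6797 (0.86 ± 0.47). ZNF277 and ZNF395 had 0.96 ± 0.42 and 0.92 ± 0.51, ZNF516 had 0.53 ± 0.34 and ZNF526 0.40 ± 0.33. These were 6 of the 10 genes with both treated libraries above both controls.

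**Figure D5:**
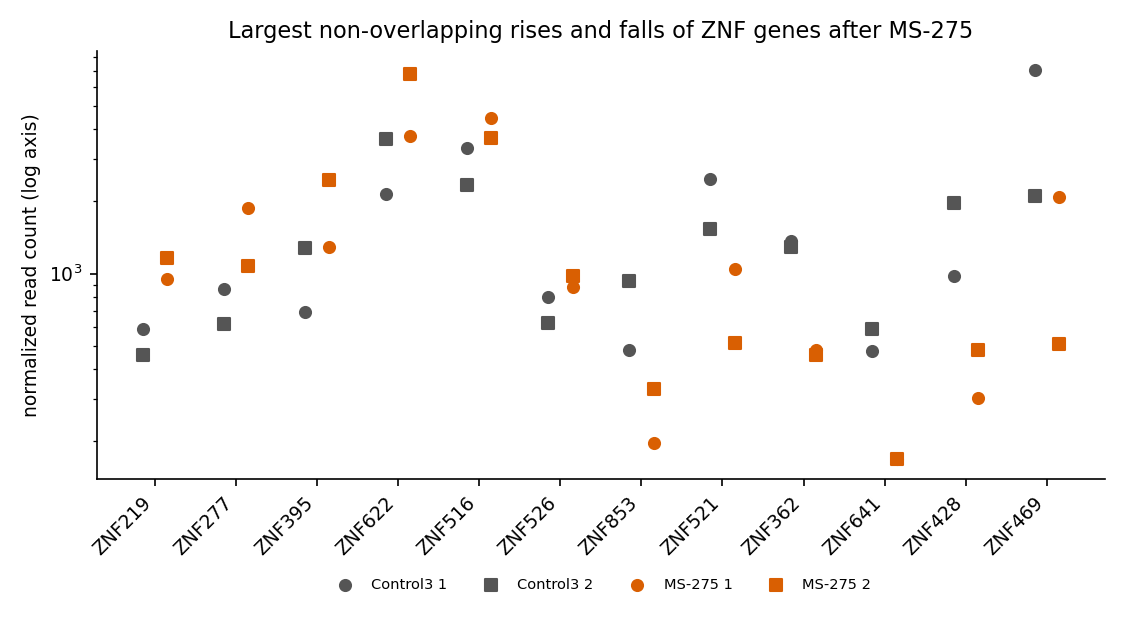
Normalized read counts (vertical log axis) of 12 ZNF genes after MS-275, the 6 with the largest falls and the 6 with the largest rises among those whose groups did not overlap, in the 2 Control3 libraries (grey) and the 2 MS-275 libraries (orange), circles for library 1 and squares for library 2. In ZNF469 the squares lie far below the circles of the same group, while in ZNF362 circle and square lie together.

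The A485 comparison uses the Control2 libraries that chose the genes, so its values are given as a description without a test. In the fit over all 16084 genes, 4 of the 221 lay past the thresholds as higher (1.8%, background 3.31%) and 6 as lower (2.7%, background 7.06%), and nothing is read from these counts. The median log2 fold change was 0.18, against 0.01 over all genes, and 143 of the 221 (64.7%) were above 0 (background 50.5%). Chosen on Control3 instead, 213 genes had the same median of 0.18, and the 72 genes with a Control2 mean of at least 1000 had 0.057. The 101 genes under the limit had 0.40.

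ZNF469 had 6766 and 10502 counts in Control2 and 365 and 735 after A485, a log2 fold change of -4.02. ZNF703, a transcriptional repressor, had 3095 and 5324, and then 1193 and 559 (-2.31), and ZNF608 1250 and 1760, and then 325 and 501 (-1.88). ZNF697 had 1681 and 1515, and then 499 and 474 (-1.71), with ZNF521 at -1.19 and ZNF841 at -1.15. In all 6 both treated libraries lay below both controls. The summed level of the 10 fibroblast markers was also lower after A485, at 429999 and 503665 counts against 1366502 and 1525599. This was not particular to fibroblast markers. The 4 epithelial markers listed summed to 1265 and 1608 against 2718 and 3089, and the 3 endothelial ones to 127 and 189 against 508 and 1289. Of the 4 epithelial markers, KRT8, KRT18 and KRT19 were lower. EPCAM went the other way, with 208 and 177 counts after A485 against 64.2 and 47.7. The 1 immune marker listed was higher, at 23.6 and 24.9 against 7.34 and 9.63. The part of the marker levels in the ZNF values was not tested.

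The level limit on Control2 kept out genes low in control. Rises after A485 are therefore not compared in size with the falls. The largest rise was 1.51 among the members and 1.96 among the 101 ZNF genes under the limit. ZNF219 had 363 and 585 counts in Control2 and 1290 and 1340 after A485 (log2 fold change 1.51), and ZNF180 255 and 362, and then 730 and 641 (1.17). ZNF211 (1.06), ZNF772 (1.03), ZNF431 (1.08) and ZNF671 (1.07) had values of like size. In all 6 both treated libraries lay above both controls, which the rule for naming ZNF431 and ZNF671 required.

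Across treatments, the commonest pair of directions was lower after MS-275 and higher after pyruvate. It held for 75 of the 221 genes (33.9%), counted as lower within both numbers and called higher, where 15.3% of 11989 genes showed it. Each part alone was also more frequent in the family, at 71.9% against 40.4% for lower and 42.5% against 31.1% for higher. Whether the 2 parts go together gene by gene was not tested. With the GC and length trend removed, the calls higher after pyruvate fell to 43. The reverse, higher within both numbers after MS-275 and called lower after pyruvate, held for 8 (3.6%), where 10.8% of genes did. ZNF521 is an example of the commonest pair, at -1.42 after MS-275 and 2.74 ± 0.22 after pyruvate, where counts went from 125 and 78.1 to 690 and 641. ZNF180 (-1.34 and 1.58) and ZNF714 (-1.25 and 1.23) had the same pair of signs, but with the GC and length trend removed their values after pyruvate were -0.034 and -0.51.

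ZNF219 was the clearest case of the reverse pair, at 1.01 after MS-275 and -4.34 after pyruvate, with 1.51 after A485. In 2 genes both treated libraries lay above both controls in all 3 comparisons (0.90%, where 2.03% of genes did). In 2 they lay below (0.90%, where 2.5% did). The A485 part uses the Control2 libraries that chose the genes, so nothing is read from these shares. ZNF664 had values above 0 (0.42 after A485, 0.38 after MS-275 and 2.54 after pyruvate), and so did ZNF706 (0.15, 0.24 and 0.63, but -0.72 after pyruvate and -0.11 after A485 with the trend removed). ZNF276 (-0.33, -0.59 and -0.55, but 0.32 after pyruvate with the trend removed) and ZNF74 (-0.32, -0.75 and -1.06) had values below 0. Of these values, only those of ZNF664 and ZNF74 after pyruvate passed the thresholds.

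The promoters of the family share letters that the choice of genes did not use. RefSeq promoters, from 250 bases before to 50 after the start, were found for 192 of the 221 genes. The letters CCGGAAG, the core that ETS family factors bind, occurred on either strand in 46.4% of them, against 20.2% of the promoters of genes listed in all 12 libraries and 10.7% of all 27305 promoters. The share was 54.3% with a KRAB match and 39.0% without. The GC box GGGCGG occurred in 65.1% (71.6% of listed genes) and the CRE letters TGACGTCA in 4.7% (3.4% of listed genes). The ETS letters occurred in 41.4% of the promoters of genes called higher after pyruvate, in 44% of those called lower and in 50.9% of those below both controls after MS-275. A match is a description of letters in this window and not a binding site.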

How the data were processed

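Per the submitters' processing notes, reads were trimmed with Trim Galore (0.6.10), aligned with HISAT2 (2.2.1), handled with SAMtools (1.7), counted with featureCounts (2.0.6) and normalized with DESeq2 (1.34.0), with hg38 for IMR90. The deposited values are a signal: reads per gene divided by a size factor per library. Annotation and strand setting are not given in the sources used here, and 90 of the 221 genes overlap another listed gene, 70 of them one on the opposite strand, so reads may be shared. Replicate libraries differed by more than sampling noise (chi-square per gene 4.54 to 458).

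In each comparison, genes whose mean value reached 10 were tested on log2(value + 1), which understates changes of low genes, with limma (3.58.1, R 4.3.3), eBayes with an intensity trend, two-sided, and Benjamini-Hochberg adjustment over all genes. Comparisons were fitted separately. Called means an adjusted p under 0.05 and an absolute log2 fold change above 1. Whole reads were recovered for A485 and Control2 (100% of values within 0.01 of a whole number); there edgeR (4.0.16) called 542 genes higher and 1122 lower, limma 532 and 1135, and DESeq2 (1.42.0) 782 and 1543. Positions, lengths, GC content and protein patterns came from GENCODE canonical transcripts of hg38.

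The named genes are, per comparison, the 6 called higher and the 6 called lower with the largest change (filled up with the largest non-overlapping changes of one sign in both numbers), members of role lists, the 3 highest per kilobase, those next to the limit, those with the same direction in 3 comparisons or opposite ones after MS-275 and pyruvate, and KRAB corepressor genes. CBX5 and HDAC2 were picked from these after their values were seen. The genes, lists and tests were chosen with earlier results of these data known. The tests were tested on simulated data. The 8 muscle libraries were not used. Alternatives covered pseudocount, filter, scaling, GC trend, replicate number, libraries and the limit.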

Additional observations from a re-analysis of the deposited data

How the results depend on the processing

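The counts of calls after pyruvate (94 higher, 30 lower) moved by over 1.5 times to 43 and 17 with the GC and length trend removed (43 and 18 with the replicate block as well), and the calls lower to 51 with quantile normalization, 14 with equal library totals, 55 with a fold change minimum of 0.58 and 63 with none. Genes with a Control2 mean of at least 1000 had 33 and 9. The median of 0.73 became 0.28, 1.04, 0.32 and 0.88 with quantile normalization, equal totals, the trend removed (also with the block) and that limit, and ranged from 0.65 to 0.77 without 1 library. After MS-275 the median became -0.25 with quantile normalization, -0.45 with equal totals (which moved all genes to -0.15) and -0.22 with the limit of 1000, and ranged from -0.48 to -0.13 without 1 library. The shared fit called 5 lower. Without 1 library, 0 to 1 were called in each direction.

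Replicate numbers name only 2 pairs with no stated link, so they were not taken as a pairing. Deviations of same-numbered libraries correlated at 0.32, 0.73 and 0.002 for A485, MS-275 and pyruvate. With the number as a block, MS-275 gave 1 gene higher and 14 lower (2 and 14 with the trend removed), against 1230 and 953 over all genes. Of the 12 genes named for MS-275, 7 passed with the block. The calls after pyruvate stayed 94 and 30.

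After A485, calls higher (4) became 25 with equal totals (family median 0.57, all genes 0.40), 0 without the intensity trend, 7 with either lower fold minimum and 0 at the limit of 1000 (median 0.057). Calls lower (6) became 2 without the trend. Without 1 library they ranged over 0 to 1 and 0 to 3.

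Among KRAB corepressor genes, the 9 called higher after pyruvate became 5 with the trend removed, with or without the block, and 1 or 4 were called lower with a fold minimum of 0.58 or none. After MS-275, 2 were called lower with the block, also with the trend removed, and 1 in the shared fit. After A485, 1 was lower with the trend removed, also with the block. Among other C2H2 genes after pyruvate, the 41 higher became 20 with the trend removed (21 with the block), and the 8 lower became 2 with it (2 with the block), 14 with quantile normalization, 4 with equal totals, 13 with a minimum of 0.58 and 15 with none. After A485, their 3 higher became 6 (quantile), 13 (equal totals) and 5 (block, block with trend removed, DESeq2, either fold minimum), and their 6 lower became 3 (equal totals) and 2 (no intensity trend). Without 1 library these ranged over 0 to 2 and 0 to 3. After MS-275 they were 0 and 0, but 1 and 3 with the block, 3 lower with the block and trend removed, and 0 to 1 higher without 1 library.

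With the trend removed, the sign after pyruvate changed in 9 of the 44 named ZNF genes called and in 15 of the 23 not called. Among the called were, with or without the block, ZNF180 (-0.034), ZNF207 (-0.31), ZNF213 (0.30), ZNF444 (0.32) and ZNF714 (-0.51). Removing the trend also moved the median of all genes from -0.01 to 0.20, which by itself shifts the sign of values near 0. The cause was not tested in any of these cases. Count tests on recovered reads were run for A485 alone. The median difference between libraries of a group was 0.56 (log2) in Control3 and 0.61 in MS-275, against 0.14 to 0.25 in the others, which limits what MS-275 can show.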
